A study of Sus scrofa with 8 samples.

Results

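The miRNAs miR-143 and miR-145 were followed in the corpus luteum of the pig. This gland develops from the follicle after ovulation and makes progesterone. The members were all non-control entries of the array design that are named miR-143 or miR-145, whatever the species prefix and strand suffix. These were 4 of the 686 miRNA targets on the array, the porcine entries ssc-miR-143-3p, ssc-miR-143-5p, ssc-miR-145-5p and ssc-miR-145-3p, which are both strands of both hairpins. Luteal tissue was taken after death from crossbred gilts of 1 commercial herd, aged 6 to 8 months. Cyclic gilts were left uninseminated and sampled on day 14 of the estrous cycle (4 samples), and pregnant gilts were inseminated at the second estrus and sampled on day 14 of pregnancy (4 samples). No gilt of either group was given any other treatment that the labels name. Each sample, labelled as a biological replicate, was hybridised to a 1-colour Agilent miRNA array of its own.

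The hairpins of miR-143 and miR-145 are copied from neighbouring genes, usually as a single primary transcript, and are best known from vascular smooth muscle and pericytes, the contractile cells of the vessel wall. There serum response factor and myocardin drive their transcription, and both miRNAs favour the contractile over the proliferating state, with the transcription factors KLF4, KLF5 and ELK1 among their known targets. miR-143-3p and miR-145-5p are the strands usually loaded into the silencing complex, and miR-143-5p and miR-145-3p are their passenger strands. In the RefSeq gene table of the pig assembly Sscrofa11.1, MIR143 and MIR145 lie on the same chromosome with 0 other genes starting between them, inside the span of the IL17B gene model. A corpus luteum holds many small vessels beside its steroidogenic cells. In RNA of whole luteal tissue, fewer cells of a type and less of the miRNA per cell cannot be told apart. The markers by which luteal steroidogenic cells are usually recognised are proteins and messenger RNAs, which the array does not measure.

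On each array 22.8% to 28.8% of the spots were well above background, and at least 181 targets were detected. Slide 1 carried only pregnant replicates 1 and 2, slide 2 only cyclic replicates 1 and 2, and slide 3 the remaining 2 replicates of each group. Scanning took place on 2 days, the first for slide 1 alone. The 75th percentile of intensity, by which each array was scaled, ran from 189 to 316 and was lowest on pregnant replicate 4 (189) and cyclic replicate 3 (193).

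Each strand was measured by 2 probes with 10 spots each, and the signal above background differed sharply between them. For miR-143-3p both probes were detected on all 8 arrays, with an intensity of 233 to 397 for the brighter and 158 to 265 for the other. The ratio between them stayed within 1.47 to 1.55, and the median coefficient of variation between spots was 2.89% for the brighter. Both probes of miR-145-5p were also detected on all 8 arrays, at lower intensities of 25.0 to 37.4 and 21.9 to 34.5. Here the coefficient of variation was 5.95% and the ratio between the probes 1.05 to 1.15. The passenger strands lay nearer to background. For miR-143-5p, the brighter probe read 12.2 to 20.8 and was detected on all 8 arrays (12.3%), whereas the other read 0.345 to 3.73 and was detected on 0, so that this strand rested on a single probe. The brighter probe of miR-145-3p read 9.16 to 28.1 and was detected on 7 arrays (11.4%), the other on 5. These intensities belong to different probes and therefore give no order of abundance among the strands. Below, each strand is given by its brighter probe, as the intensity divided by the 75th percentile of its array over targets detected on all arrays, on a log2 scale on which 0 is that percentile.

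**Figure D1:**
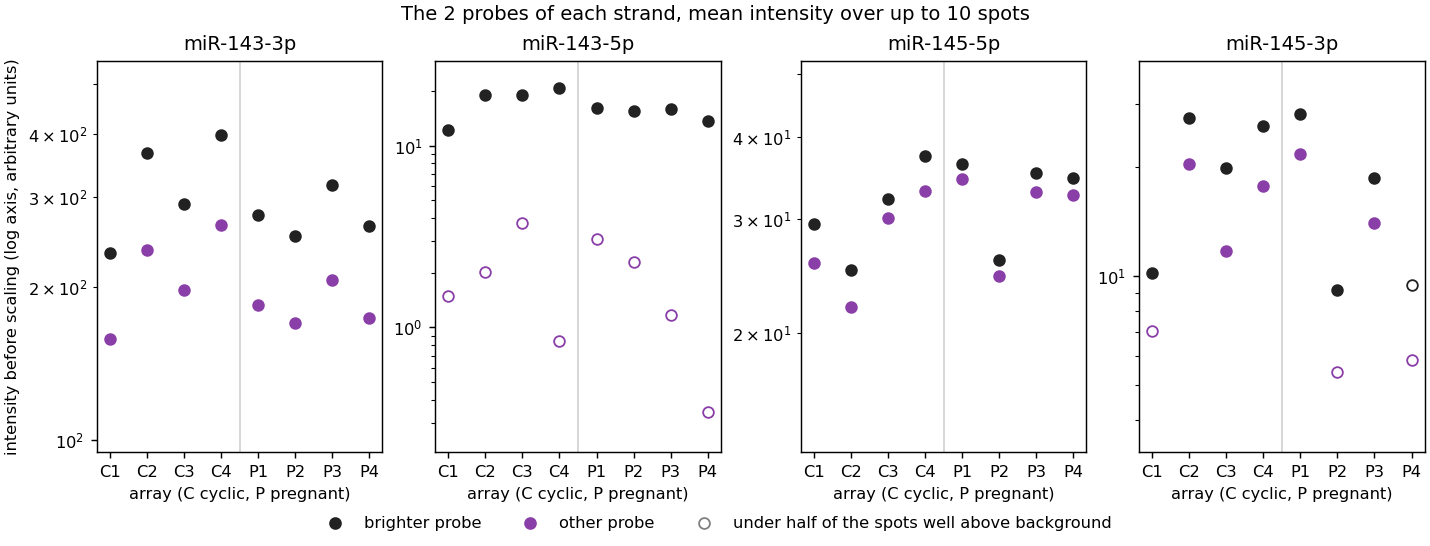
Intensity before scaling (log axis, arbitrary units) of the 2 probes of each strand on the 8 arrays (C cyclic, P pregnant, with the replicate number), as means over up to 10 spots, with open points where a share under 0.5 of the spots were well above background. The probes of miR-143-3p, miR-145-5p and miR-145-3p rose and fell together, while the other probe of miR-143-5p stayed below 4 on every array.

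miR-143-3p, the guide strand of its hairpin, was close to the 75th percentile on every array and did not differ detectably between cycle and pregnancy. Its scaled log2 signal was 0.03, 0.30, 0.59 and 0.33 on cyclic replicates 1 to 4 and 0.01, 0.09, 0.07 and 0.48 on pregnant replicates 1 to 4. The groups overlapped across almost their whole range, and the highest values belonged to cyclic replicate 3 and pregnant replicate 4, the arrays with the lowest 75th percentile. The mean was 0.31 ± 0.23 in the cycle and 0.16 ± 0.21 in pregnancy (SD, n = 4). In the limma fit across all tested targets the difference, pregnant minus cyclic, was −0.15 ± 0.15 (SE, adjusted p = 0.577), a fold of 0.902 with a 95% interval of 0.716 to 1.14.

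With the scaling used here, the passenger strand miR-143-5p gave nearly the same difference at a far dimmer signal. It read −4.23, −3.97, −3.35 and −3.92 on cyclic replicates 1 to 4 and −4.10, −3.93, −4.24 and −3.79 on pregnant replicates 1 to 4. Again cyclic replicate 3 was highest and pregnant replicate 4 led its group, and the groups overlapped. The means were −3.87 ± 0.37 and −4.01 ± 0.20 (SD, n = 4). The difference was −0.15 ± 0.20 (SE, limma adjusted p = 0.70), a fold of 0.902 with a wider interval of 0.662 to 1.23. Without cyclic replicate 3 it was 0.02. The match between the strands depended on the processing. With normexp background correction the differences of miR-143-3p and miR-143-5p were −0.13 and −0.02. They were −0.11 and −0.005 with quantile normalization, and −0.07 and −0.0007 in the authors' log2 values.

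For miR-145-5p, the guide strand of the neighbouring hairpin, the difference pointed the other way and was also within the spread between arrays. Its log2 signal was −2.96, −3.57, −2.59 and −3.08 on cyclic replicates 1 to 4 and −2.92, −3.19, −3.10 and −2.45 on pregnant replicates 1 to 4. Cyclic replicate 2 was lowest of all 8 and pregnant replicate 4 highest, with the remaining arrays intermingled. Before scaling, pregnant replicate 4, the array with the lowest 75th percentile, read 34.6, below cyclic replicate 4 (37.4) and pregnant replicates 1 (36.4) and 3 (35.2). Over the 8 arrays the scaled signal had an r of −0.771 with the log2 75th percentile, and 3.3% of the tested targets had a lower r. Without scaling it was 0.0981. The means were −3.05 ± 0.40 in the cycle and −2.91 ± 0.33 in pregnancy (SD, n = 4). The difference of 0.14 ± 0.23 (SE, limma adjusted p = 0.758), a fold of 1.10 with an interval of 0.770 to 1.57, became −0.04 without cyclic replicate 2 and −0.02 without pregnant replicate 4.

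miR-145-3p, the passenger strand of miR-145, varied most. Before scaling, its intensity was 10.2, 27.3, 19.9 and 26.1 on cyclic replicates 1 to 4 and 28.1, 9.16, 18.7 and 9.43 on pregnant replicates 1 to 4. Cyclic replicate 1 and pregnant replicates 2 and 4 thus lay close together near 10, and the other 5 arrays, from both groups, between 18.7 and 28.1. On those 3 dim arrays the second probe was not detected, whereas it was on the other 5; the brighter probe was detected on all but pregnant replicate 4, with 50% of its spots well above background on cyclic replicate 1 and pregnant replicate 2. On the scaled log2 axis the strand read −4.49, −3.45, −3.28 and −3.60 in the cycle and −3.29, −4.69, −4.01 and −4.32 in pregnancy, of which the last, on pregnant replicate 4, is a measured value that was not well above background. The means were −3.70 ± 0.54 and −4.08 ± 0.59 (SD, n = 4), and the groups overlapped. The difference of −0.38 ± 0.32 (SE, limma adjusted p = 0.465) corresponds to a fold of 0.770 with an interval of 0.470 to 1.26. It kept its sign in all 25 other settings in which it was fitted, and passed the test in 0 of them.

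**Figure D2:**
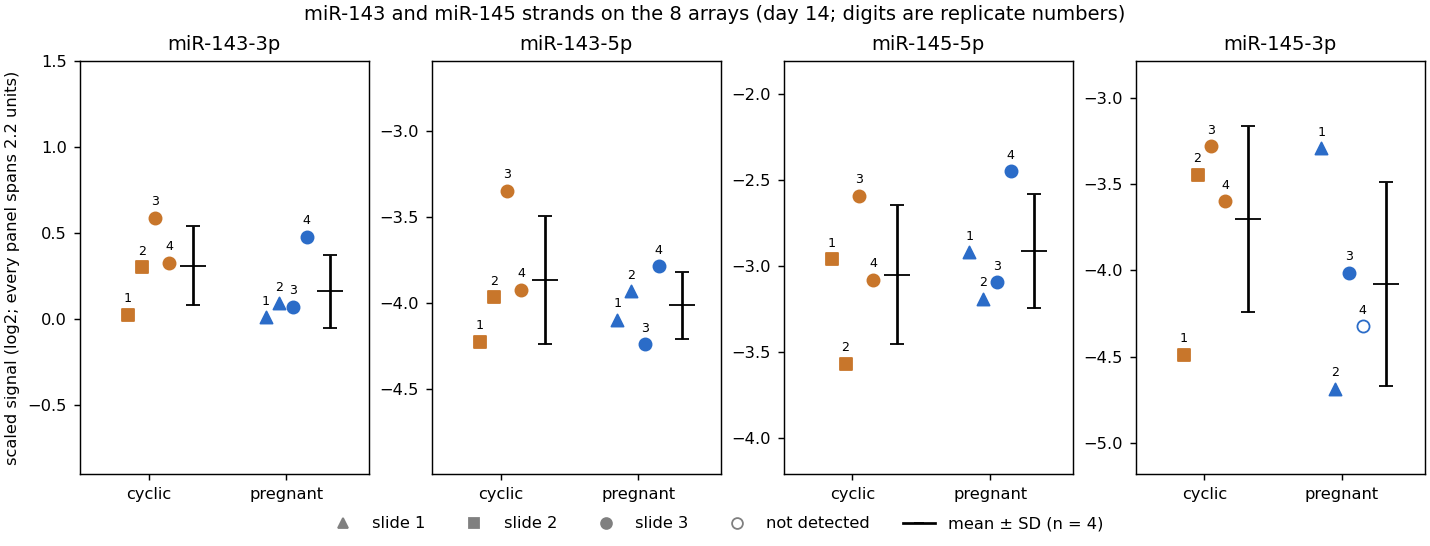
Scaled log2 signal of the 4 strands on every array by group, with the mean ± SD of 4 arrays in black, symbols by slide, digits for the replicate number and an open symbol where the probe was not detected. In every panel the groups overlap, and miR-145-3p has the widest spread, with an SD of 0.54 and 0.59.

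The labels set pregnancy against the cycle on the same day, and against all targets the 4 strands did not stand out in this comparison. After Benjamini-Hochberg adjustment over the 212 targets tested with limma, 24 passed (11.3%), of which 11 were higher (5.19%) and 13 lower (6.13%) in pregnancy. The strands of miR-143 and miR-145 that passed were 0 of 4, and 0 of 4 had an unadjusted p under 0.05, against 73 of all tested targets (34.4%). The number of targets that passed was 81 without cyclic replicate 1, 7 without cyclic replicate 3 or pregnant replicate 4, and 9 to 12 without any 1 of the other arrays, with 0 of the 4 strands among them each time. The groups did not overlap in 35 of the tested targets (16.5%) and overlapped in all 4 strands. The sizes of the differences of miR-143-3p, miR-143-5p and miR-145-5p were below the median size over all tested targets, 0.27, and exceeded those of 36.8%, 36.3% and 34.0% of them. That of miR-145-3p exceeded 67.5%. The spread between replicates rose in the order miR-143-3p, miR-143-5p, miR-145-5p and miR-145-3p, with pooled within-group SDs of 0.22, 0.30, 0.37 and 0.57 against a median of 0.23 over all tested targets. For miR-145-3p 92.9% of the tested targets had a smaller SD, for miR-143-3p 43.9%.

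Within slide 3, the 1 slide that held both groups with 2 arrays each, the differences were −0.18 for miR-143-3p, −0.38 for miR-143-5p, 0.06 for miR-145-5p and −0.73 for miR-145-3p, with limma adjusted p from 0.113 to 0.938. On that slide both cyclic values of miR-145-3p, −3.28 and −3.60, lay above both pregnant values, −4.01 and −4.32, whereas off it the groups overlapped. The last of these, on pregnant replicate 4, was not well above background. With 2 arrays against 2 an exact permutation test cannot give a p below 0.333, so this separation cannot be told from chance. With scan day as a block the differences of the 4 strands were −0.04, −0.15, 0.28 and −0.47 in the same order. The first day held only pregnant replicates 1 and 2. These differences therefore rest on pregnant replicates 3 and 4 against the 4 cyclic arrays. Taking the 75th percentile over every probe instead turned miR-143-3p and miR-143-5p to 0.15 each, and gave 0.44 for miR-145-5p and −0.08 for miR-145-3p. That scaling raised the median difference of all tested targets to 0.30, and relative to this shift the 4 strands stood at −0.15, −0.15, 0.13 and −0.38.

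**Figure D3:**
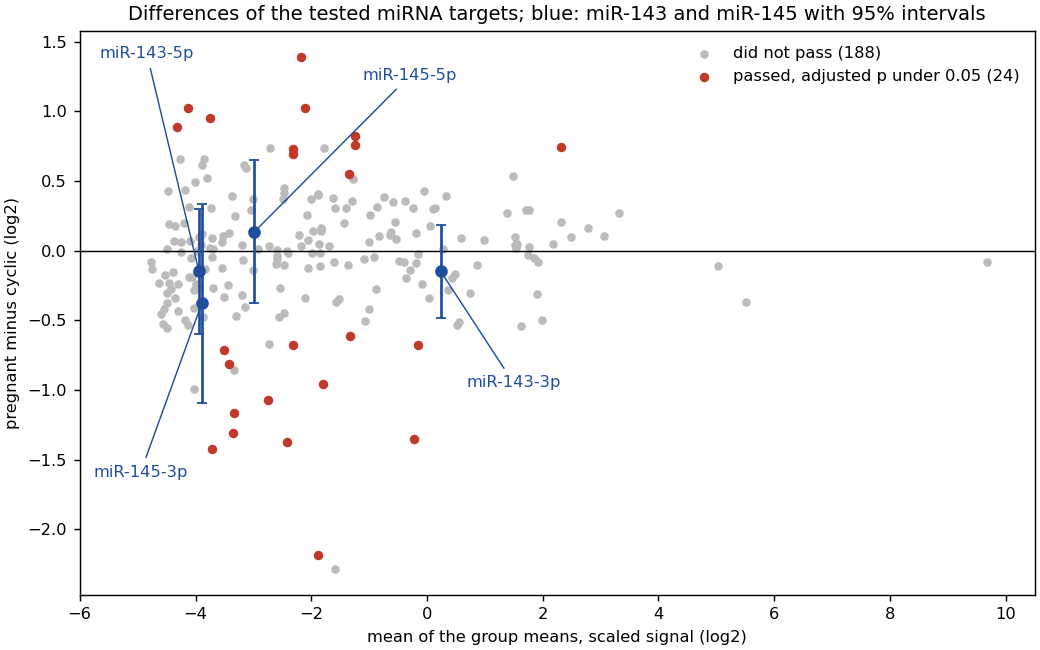
Difference between the groups (pregnant minus cyclic, log2) against mean scaled log2 signal for the 212 tested targets, with the 24 that passed in red and the 4 strands in blue with 95% intervals. All 4 intervals include 0, and the interval of miR-145-3p, from −1.09 to 0.34, is the widest of the 4.

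**Figure D4:**
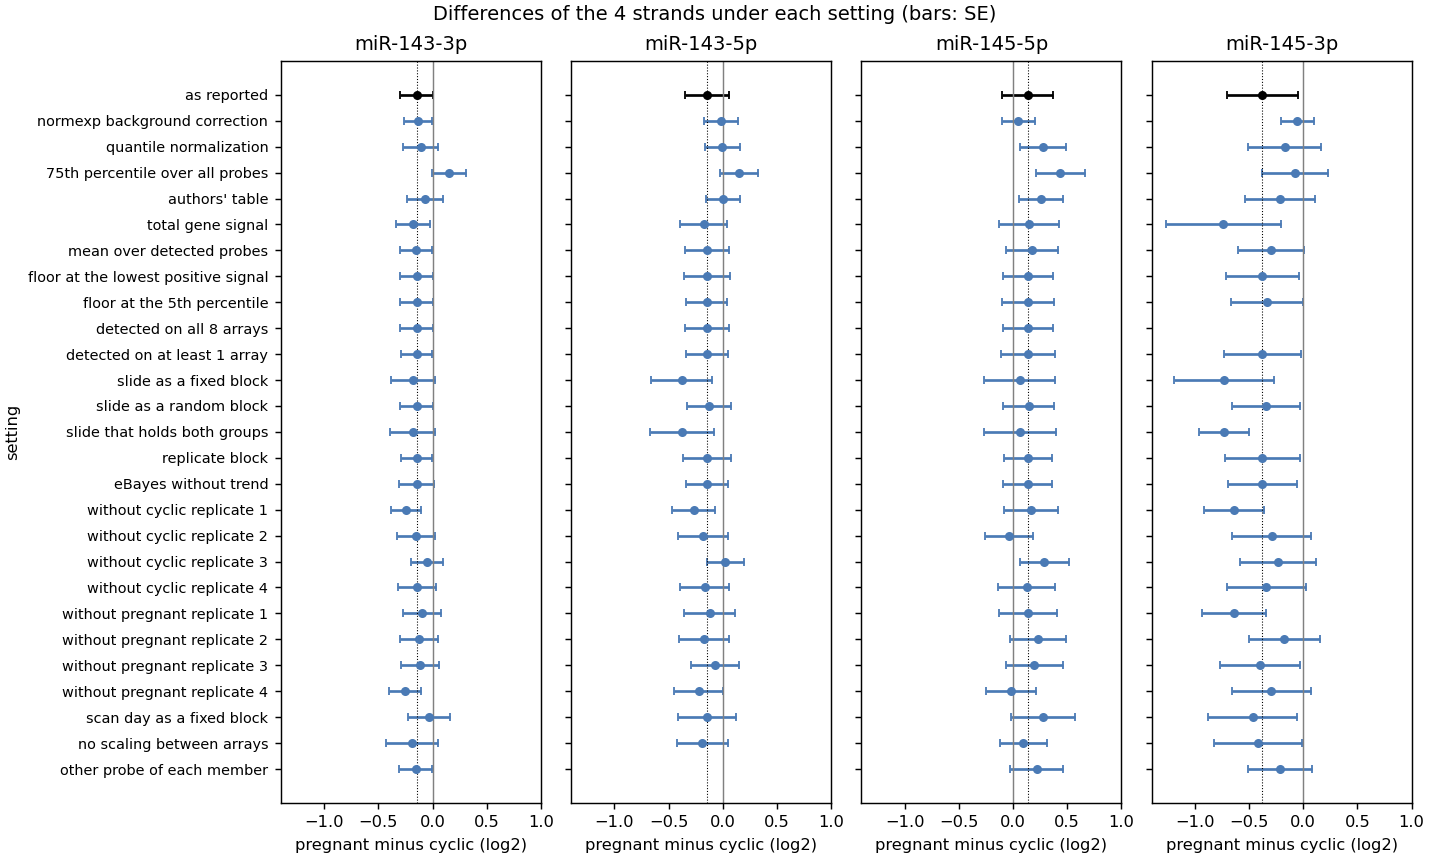
Difference of each strand (pregnant minus cyclic, log2, with its SE) as reported and under the other settings, which number 26 for miR-143-3p and miR-145-5p and 25 for miR-143-5p and miR-145-3p. The differences of miR-145-3p stay below 0 throughout, from −0.74 to −0.05, while those of the other strands lie on both sides of 0.

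Because strands of 1 hairpin arise from the same precursor, the difference between them within an array was compared between the groups. This asks whether 2 strands changed unequally and does not compare their abundance. For miR-143-3p minus miR-143-5p the log2 difference was 4.25, 4.27, 3.94 and 4.25 on cyclic replicates 1 to 4 and 4.11, 4.03, 4.31 and 4.27 on pregnant replicates 1 to 4. All values lay between 3.94 on cyclic replicate 3 and 4.31 on pregnant replicate 3, and the groups overlapped. The group means of 4.18 ± 0.16 and 4.18 ± 0.13 (SD, n = 4) differed by −0.000388 (exact permutation test over arrays, 2-sided, p = 1, adjusted over 3 pairs p = 1).

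The difference between the miR-145 strands varied more from array to array. For miR-145-5p minus miR-145-3p it was 1.53, −0.12, 0.69 and 0.52 in the cycle and 0.37, 1.50, 0.92 and 1.87 in pregnancy, for replicates 1 to 4 of each. The means were 0.65 ± 0.68 and 1.17 ± 0.66 (SD, n = 4), and their difference of 0.51 was within that spread (exact permutation p = 0.314, adjusted p = 0.471). The highest value, 1.87 on pregnant replicate 4, was taken against a miR-145-3p signal that was not well above background. Without that array the difference between the groups was 0.28, without cyclic replicate 2 it was 0.25, without cyclic replicate 1 it was 0.81, and with normexp background correction 0.10. Between the guide strands, miR-143-3p minus miR-145-5p, the means were 3.36 ± 0.38 and 3.08 ± 0.18 (SD, n = 4), lower in pregnancy by 0.29 (−0.29, exact permutation p = 0.229, adjusted p = 0.471). This value ran from −0.41 to −0.12 when 1 array was left out, the last without cyclic replicate 2. With 4 arrays against 4 the smallest p this test can give is 0.0286.

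Across the 8 arrays the miR-143 strands moved together. Pearson's r between miR-143-3p and miR-143-5p was 0.886 (exact permutation p = 0.00126, adjusted over 3 pairs p = 0.00379), and Spearman's rho was 0.881 (exact p = 0.00724, adjusted p = 0.0217). The r was 0.877 for deviations from the group means, and 0.952 over the 6 arrays of the scan day that held both groups (exact permutation p = 0.00278). Without any 1 of the 8 arrays r stayed between 0.825 and 0.923 and passed in 7 of 8 cases. It did not pass without cyclic replicate 3 (r = 0.825, adjusted exact permutation p = 0.0875). Without pregnant replicate 4 it passed (r = 0.902, adjusted exact permutation p = 0.0304). Both arrays were the farthest from the median of miR-143-3p and also those with the lowest 75th percentile. Without both r was 0.697 (n = 6, exact permutation p = 0.139), over fewer arrays and a narrower range. Without any scaling between arrays r over all 8 was 0.865 (adjusted exact permutation p = 0.0193), and with scaling over all probes 0.783 (adjusted exact permutation p = 0.0574). Over the 8 arrays, the log2 75th percentile had an r of 0.691 with unscaled miR-143-3p and 0.463 with unscaled miR-143-5p. With the scaled signals these were −0.487 and −0.599. For miR-145-3p the r was 0.654 without scaling and 0.306 with it. These r were not tested, nor was the part of the percentile in the correlation of the miR-143 strands. With normexp background correction r between the miR-143 strands was 0.613 (adjusted exact permutation p = 0.172). Among the 211 other tested targets, miR-143-5p was the one most like miR-143-3p, and miR-143-3p ranked 3 in likeness to miR-143-5p. Ahead of it were the human entry hsa-miR-940 (r = 0.920) and miR-199a-5p (0.890).

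The correlations of the other pairs did not pass. Between the miR-145 strands r was −0.0562 (exact permutation p = 0.893, adjusted p = 0.893) and rho 0.238 (exact p = 0.582, adjusted p = 0.582). Over the 6 arrays of the shared scan day r was −0.290 (exact permutation p = 0.568), and without cyclic replicate 2 and pregnant replicate 4 it was 0.653 (n = 6, exact permutation p = 0.139). Between the guide strands miR-143-3p and miR-145-5p r was 0.464 (exact permutation p = 0.251, adjusted p = 0.377) and rho 0.286 (exact p = 0.501, adjusted p = 0.582). It was 0.508 over the 6 arrays of the shared scan day (exact permutation p = 0.329) and −0.656 without cyclic replicate 3 and pregnant replicate 4 (n = 6, exact permutation p = 0.142). In likeness to miR-143-3p, miR-145-5p ranked 60 and miR-145-3p 77 among 211 targets.

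**Figure D5:**
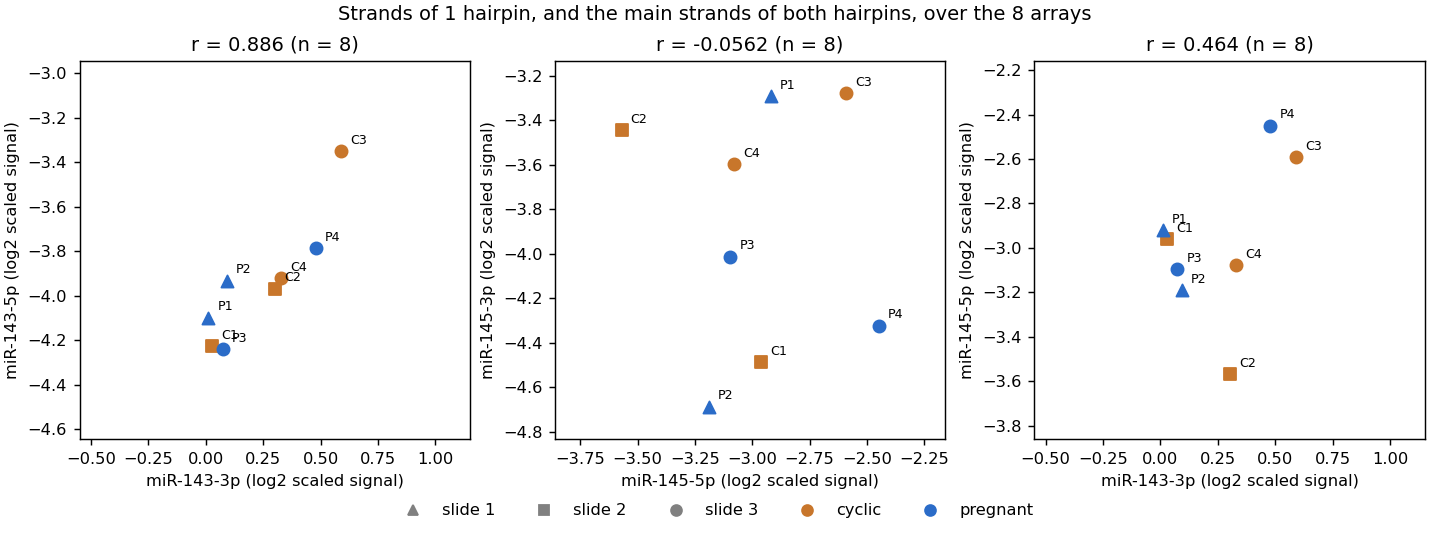
Scaled log2 signals of both strands of miR-143, both strands of miR-145 and the guide strands miR-143-3p and miR-145-5p on the 8 arrays, with colour for the group and symbol for the slide; every axis spans the same number of log2 units. The arrays line up for miR-143 (r = 0.886), with C3 and P4 at the upper end, and scatter for miR-145 (r = −0.0562).

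Of the targets outside the miR-143 and miR-145 entries, those most like the mean centred signal of the 4 strands over the 8 arrays were miR-199b-5p (r = 0.812), miR-199b-3p (0.782), miR-335 (0.773), miR-195 (0.770) and miR-199a-5p (0.765). The values are a description over arrays that share their scaling, and the median r over all targets compared was 0.00577. Of these 5 targets, 3 belong to the miR-199 family, which is known from fibroblasts and other stromal cells. Their differences between the groups were −0.45 ± 0.36 for miR-199b-5p, −0.34 ± 0.20 for miR-199b-3p and −0.51 ± 0.28 for miR-199a-5p (SE, n = 4 per group), with limma adjusted p from 0.229 to 0.425. All were highest on cyclic replicate 3, as was the mean of the 4 strands. The strands did not all move together (r = −0.0562 between those of miR-145), and miR-145-3p had the widest spread. miR-199b-5p (0.862) and miR-335 (0.738) were among the 5 targets nearest to miR-145-3p, but not among those nearest to any other strand.

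Other miRNAs known to act on the state of smooth muscle were taken from a list of 12 names, for which the array held 24 targets. Of the 11 tested, 0 were higher, 1 was lower and 10 did not pass, where over all tested targets 6.13% were lower and 11.3% passed in either direction, with a median difference of 0.00683 beside 0.00376 over all tested targets. Their summed scaled signal ran from 52.3 to 77.2 in the cycle and from 48.2 to 54.3 in pregnancy, and ssc-miR-21 alone made up 73.4% to 85.0% of it. The lower one was the mouse entry mmu-miR-21a-3p, the passenger strand of miR-21, at −2.18 ± 0.41 (SE, limma adjusted p = 0.0105). The 4 brightest were ssc-miR-21 (−0.37), which restrains apoptosis in many cells, miR-26a (0.04), miR-24-3p (0.02) and miR-195 (−0.09), with limma adjusted p from 0.142 to 0.941. miR-221-3p and miR-222, which oppose the contractile state, stood at 0.07 and 0.16 and did not pass. The rest of those tested were ssc-miR-31 (0.35 ± 0.13, SE), the mouse entry mmu-miR-31-3p (0.01), miR-146a-5p (−0.01) and miR-18a (−0.31). None of these passed (limma adjusted p from 0.104 to 0.978). Of the remaining names, miR-10a-5p was detected on 1 array, and the entries of miR-1 and miR-133 on 0.

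Lists of miRNAs known from other cells were read beside these. Every count of targets that passed stands beside a share of 11.3% over all tested targets. The fibroblast list had 5 tested targets, of which 0 passed, with a median of −0.45. Its members were the 4 strands of miR-199a and miR-199b, from −0.53 to −0.34, and miR-214 (0.11). Its summed scaled signal ran from 3.57 to 8.50 in the cycle and from 3.85 to 4.32 in pregnancy. For miR-126, the endothelial miRNA, both strands were tested and did not pass (3p 0.16, 5p −0.08, median 0.04), and the summed signal ran from 6.29 to 7.49 and from 7.10 to 8.73. Summed over the 4 strands of miR-143 and miR-145 it ran from 1.25 to 1.87 in the cycle and from 1.28 to 1.70 in pregnancy. Of this sum miR-143-3p alone made up 77.5% to 83.7%. The sums of different lists come from different probes and give no order of abundance. Of 8 tested leukocyte targets 1 was lower, beside 6.13% lower over all tested targets. It was ssc-miR-155-5p (−0.96 ± 0.25, SE, limma adjusted p = 0.0324). The other 7 did not pass (median of all 8 −0.22), among them the human entry hsa-miR-223-3p of myeloid cells (−2.29 ± 0.76, SE, limma adjusted p = 0.0791). The summed leukocyte signal ran from 0.94 to 5.22 in the cycle and from 1.02 to 1.22 in pregnancy, of which hsa-miR-223-3p made up 11.9% to 64.1%. Of miR-142, a marker of blood cells, the 3p strand was detected on 0 arrays and the 5p strand on 8 (−0.67 ± 0.44, SE, limma adjusted p = 0.316). The erythroid miR-451 was detected on all 8 arrays (0.10 ± 0.62, SE) and miR-144 on 4 (−0.13 ± 0.14, SE), and neither passed. Of 11 targets listed for striated muscle, miR-499-5p (0.00 ± 0.20, SE) and the human entry hsa-miR-208a-5p (−0.42 ± 0.16, SE) were tested and did not pass. The latter was detected on 5 arrays, with means of −4.33 in the cycle and −4.75 in pregnancy, near the floor of −4.85. The other 9, with miR-1, miR-133a, miR-133b and miR-206, were detected on 0 arrays.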

How the data were processed

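Total RNA of 8 luteal samples (100 ng each, integrity number above 8 per the labels) was analysed on 1-colour Agilent arrays. The deposited scanner files give a linear intensity for each spot, from which Agilent Feature Extraction had removed background and spatial trend (10.7.3.1 per the file headers, 10.7 per the submitters' processing notes). A table of log2 values that the authors deposited was used as an alternative and is centred on the median of each spot over the arrays. Over 1145 bright spots it followed the log2 scanner differences in the same direction (r 0.781 to 0.962), and the scaling between its arrays stays unknown. Of its deposited columns, that of cyclic replicate 2 held 2 cells above 100 and that of cyclic replicate 4 held 1, against 0 in each of the others. These 2 columns, deposited by the authors as log2 values apart from those cells, were treated as a score, and the 3 cells were read as missing. In replicate order, its medians per column in the cycle were 0.0108, −0.000283, 0.000689 and −0.000205, and in pregnancy −0.000302, 9.45e-05, −9.45e-05 and 0.0318.

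Control spots (715 per array) and outlier spots (384 to 453) were left out, and spots of a probe were averaged. Detection of a probe required a share of 0.5 or more of its spots to be well above background. Signals were divided by the array's 75th percentile over the 166 targets detected on all arrays, floored at 0.0346 (log2 −4.85; the 1st percentile of detected probes) and put on a log2 scale. A target was given by its brighter or brightest probe, and the 212 targets detected on at least 4 arrays were tested with limma 3.58.1 (eBayes with trend, 2-sided) in R 4.3.3. The adjustment was Benjamini-Hochberg over these 212 p-values, at a threshold of 0.05. Pairs of strands were tested by exact permutation over arrays, or over the 40320 pairings for correlations. The number of arrays limits the precision. Scripts were tested on simulated data. Normexp (offset 50) was run on median spot and background signals. Plots were made in matplotlib 3.10.9 under Python 3.11.15.

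Members and lists were chosen with earlier results of these data known. Named targets were the 4 strands, of each list those that passed and up to 4 with the highest mean signal, and the 5 targets most like the mean of the 4 strands. miR-221-3p, miR-222, miR-31, miR-146a-5p, miR-18a, miR-142, hsa-miR-940 and the targets described as undetected were named after their values were seen. Scan day as a block, no scaling and the other probe of a strand were added after seeing the data.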

Additional observations from a re-analysis of the deposited data

Results flagged for a closer look

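The within-array difference between miR-143-3p and miR-143-5p was 3.94 on cyclic replicate 3, apart from 4.25, 4.25 and 4.27 on the other cyclic arrays. Its gap to the nearest of these was 0.939 of the range of the group, above Dixon's 95% critical value for 4 samples. Of 14 groups of values examined in this way 1 stood out, and chance marks about 1 in 20. Cyclic replicate 3 also had the highest scaled signal of both strands, and without it the difference between the groups in this quantity was −0.08 (exact permutation, adjusted p = 0.457).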

How the results depend on the processing

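The differences of the 4 strands stayed on the same side of the threshold, not passing, in every other setting run, 26 for miR-143-3p and miR-145-5p and 25 for miR-143-5p, whose other probe is at the floor, and for miR-145-3p, which is not tested when detection on all 8 arrays is required. Their sign turned with scaling over all probes for miR-143-3p (0.151) and miR-143-5p (0.151). Over fits that left out 1 array, the difference ran from −0.25 to −0.06 for miR-143-3p, −0.268 to 0.0243 for miR-143-5p, −0.0365 to 0.289 for miR-145-5p and −0.64 to −0.17 for miR-145-3p. The near-zero unequal change of the miR-143 strands was 0.19 within slide 3 and −0.0802 to 0.0507 without 1 array. It was −0.12 with normexp and −0.10 with quantile normalization. Scaling over all probes or no scaling cannot change it, since both strands of an array share the same factor. The correlation of these strands did not pass with normexp (0.613), with scaling over all probes (0.783) or without cyclic replicate 3 (0.825). It ran from 0.825 to 0.923 without 1 array. The correlation of the miR-145 strands turned positive with normexp (0.788) and no scaling (0.288), and ran from −0.318 to 0.233 without 1 array. The cause of these changes was not tested.

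The number of targets that passed, 24 (11 higher, 13 lower), was 11 with normexp, 62 with scaling over all probes (55 higher, 7 lower), 23 with quantile normalization (14 higher, 9 lower), 10 with the total gene signal (3 higher, 7 lower), 11 with a floor at the 5th percentile, 11 with detection on at least 1 array, 9 within slide 3, 2 with scan day as a block, 7 without scaling and 7 to 81 without 1 array. Replicate numbers are shared between the groups, but arrays of the same number did not deviate together (r 0.108, 0.099, −0.179 and 0.161 for numbers 1 to 4), and not every array correlated best with its own number. With the replicate block 26 targets passed, and the strands differed by the same −0.15, −0.15, 0.14 and −0.38 with none passing; for the pairs of strands the sign-flip test cannot give a p below 0.125. The dim signals of miR-143-5p and miR-145-3p limit what can be said of them.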

Other observations

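Each strand had its own nearest targets over the 8 arrays, named here after their values were seen and given as a description, since all arrays share their scaling. miR-145-3p was most like miR-487b (r = 0.902, detected on 4 arrays), miR-199b-5p (0.862), miR-99a (0.858), miR-335 (0.738) and miR-29a (0.697). Its own partner miR-145-5p ranked 104 of 211 in likeness. miR-145-5p was most like hsa-miR-320b (0.790), hsa-miR-933 (0.787) and hsa-miR-320a (0.761), none of which passed the group test (limma adjusted p from 0.142 to 0.879). miR-143-3p and miR-143-5p shared miR-199a-5p (0.823 and 0.890) and miR-140-3p (0.833 and 0.854) among the 5 targets nearest to each, beside one another. miR-140-3p differed between the groups by 0.01 ± 0.15 (SE, n = 4 per group, limma adjusted p = 0.967).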
